A study of Homo sapiens with 4 samples.

Results

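The AP-1 transcription factors were followed as 8 genes of the deposited count table, chosen by symbol: FOS, FOSB, FOSL1, FOSL2, JUN, JUNB, JUND and ATF3. All 8 had a row among the 26364 symbols of the table. The libraries came from HCT116, a human colorectal carcinoma line. Cytoplasmic extract of cells labelled Dicer1 knockout and of wild type cells was separated on a sucrose gradient, which sorts mRNAs by the number of bound ribosomes, and each gradient gave a heavy fraction (10 or more ribosomes) and a light fraction (9 or fewer). The 4 groups were thus knockout-labelled heavy, knockout-labelled light, heavy wild type and light wild type polysomes, with 1 library each. The labels name neither the part of DICER1 that was altered nor the number of clones, and no treatment or stimulation of the cells.

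AP-1 is a family of dimeric transcription factors that share a basic leucine zipper, the segment that pairs the partners and grips DNA. JUN proteins pair with each other or with FOS proteins, FOS proteins need a JUN partner, and ATF3 can pair with JUN proteins or with itself. Most of the genes are immediate early genes: growth factor and stress kinases switch them on within minutes, and AU-rich elements in their 3′ UTRs make the mRNAs short-lived. In colorectal epithelium AP-1 is known as an output of RAS and ERK signalling. DICER1 cuts microRNA precursors, and mature microRNAs pair through their seed with sites in 3′ UTRs and repress the mRNA.

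The promoters of FOSB, ATF3, JUNB and FOS are shown because these mRNAs had the 4 lowest ratios between the genotypes in heavy polysomes, and that of JUND because its mRNA was the AP-1 mRNA called between the fractions. The sequences are RefSeq windows on GRCh38.p14, read along the gene, from 250 bases before the transcript start to 50 bases after it. Capitals mark matches to 5 motifs searched on both strands: TGANTCA and TGACNTCA, the forms that AP-1 and ATF dimers bind, TGACG, which overlaps TGACNTCA in JUND, TATAAA and CCAAT.
FOSB promoter, chr19:45467746-45468045, plus strand: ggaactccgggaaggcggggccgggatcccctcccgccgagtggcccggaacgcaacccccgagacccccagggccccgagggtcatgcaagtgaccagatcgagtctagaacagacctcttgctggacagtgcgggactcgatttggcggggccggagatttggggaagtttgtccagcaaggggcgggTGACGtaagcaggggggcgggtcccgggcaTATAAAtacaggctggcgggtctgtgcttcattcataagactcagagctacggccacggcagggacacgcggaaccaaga
ATF3 promoter, upstream window, chr1:212565157-212565456, plus strand: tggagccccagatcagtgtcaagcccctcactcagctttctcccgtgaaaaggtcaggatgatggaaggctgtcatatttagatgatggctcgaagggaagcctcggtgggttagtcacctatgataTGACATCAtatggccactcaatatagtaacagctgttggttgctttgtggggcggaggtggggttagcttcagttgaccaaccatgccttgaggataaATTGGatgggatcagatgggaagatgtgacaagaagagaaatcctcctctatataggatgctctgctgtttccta
ATF3 promoter, downstream window, chr1:212614768-212615067, plus strand: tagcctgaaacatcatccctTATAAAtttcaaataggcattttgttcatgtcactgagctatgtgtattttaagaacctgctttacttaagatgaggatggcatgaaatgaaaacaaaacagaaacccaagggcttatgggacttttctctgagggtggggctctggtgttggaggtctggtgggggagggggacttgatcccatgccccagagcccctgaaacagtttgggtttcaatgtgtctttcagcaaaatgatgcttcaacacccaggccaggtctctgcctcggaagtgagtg
FOS promoter, chr14:75278578-75278877, plus strand: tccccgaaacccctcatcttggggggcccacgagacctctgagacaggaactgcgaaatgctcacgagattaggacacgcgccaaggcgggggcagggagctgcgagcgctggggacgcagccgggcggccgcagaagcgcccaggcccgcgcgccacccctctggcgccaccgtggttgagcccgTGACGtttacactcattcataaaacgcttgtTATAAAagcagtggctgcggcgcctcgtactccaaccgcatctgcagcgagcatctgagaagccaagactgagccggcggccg
JUNB promoter, chr19:12791236-12791535, plus strand: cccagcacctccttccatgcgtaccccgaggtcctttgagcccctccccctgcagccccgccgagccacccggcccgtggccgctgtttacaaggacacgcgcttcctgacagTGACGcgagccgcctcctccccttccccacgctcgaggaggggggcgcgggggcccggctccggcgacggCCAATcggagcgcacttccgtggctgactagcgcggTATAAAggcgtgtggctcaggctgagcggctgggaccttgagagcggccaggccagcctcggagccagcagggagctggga
JUND promoter, chr19:18281573-18281872, minus strand: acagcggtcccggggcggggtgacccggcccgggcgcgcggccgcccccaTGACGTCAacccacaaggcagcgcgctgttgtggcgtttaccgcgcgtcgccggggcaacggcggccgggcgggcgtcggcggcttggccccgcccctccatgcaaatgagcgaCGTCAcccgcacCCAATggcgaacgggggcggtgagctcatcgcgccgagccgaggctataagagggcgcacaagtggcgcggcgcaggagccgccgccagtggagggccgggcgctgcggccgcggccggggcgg

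TGACG stood in 6 of the 8 AP-1 promoter windows, against 24.6% of 35116 windows in all. The 8 windows included 2 of ATF3 and covered FOS, FOSB, FOSL2, JUN, JUNB and JUND. In FOS it ended 60 bases and in FOSB 56 bases before the start site, and in each of these promoters a TATAAA followed it. TATAAA stood in 4 of 8 windows, against 11.5% of all, and CCAAT in 4 of 8, against 34.6%. TGACNTCA stood in 3 of 8, those of JUND, JUN and ATF3, against 7.72% of all. TGANTCA stood in FOSL2 alone, against 7.71% of all. The CArG box, the site of serum response factor, had no match in these windows, against 1.29% of all windows. Sequence more than 250 bases before the start site was not searched for it. The motif matches describe the letters of the windows and were not measured as bound sites.

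The 3′ UTRs of GENCODE release 44 (GRCh38) were searched for matches to bases 2 to 8 of 18 microRNAs, since the genotypes differ by label in the enzyme that makes microRNAs. Each microRNA below has its seed in capitals, and these 6 seeds differ from each other.
hsa-miR-34a-5p: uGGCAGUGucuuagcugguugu
hsa-miR-101-3p: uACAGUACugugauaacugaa
hsa-miR-155-5p: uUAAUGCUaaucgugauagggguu
hsa-miR-221-3p: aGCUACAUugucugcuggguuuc
hsa-miR-200a-3p: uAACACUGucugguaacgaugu
hsa-miR-200b-3p: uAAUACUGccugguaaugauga

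Of the 8 mRNAs, 7 held at least 1 match to any of the 18, as did 78.7% of 12527 genes, and JUND held none. FOSL2 had 14 matches in a 3′ UTR of 4869 bases, FOS 5 in 806 bases, FOSL1 5 in 837, FOSB 4 in 2167, JUN 3 in 1284, ATF3 2 in 1220 and JUNB 1 in 500. All matches of the AP-1 mRNAs to these 6 microRNAs are shown with the seed match in capitals, as DNA letters of the mRNA strand on GRCh38.
FOSB, hsa-miR-34a-5p match, chr19:45473149-45473170, plus strand: tgcggccactgcgcCACTGCCa
FOSB, hsa-miR-200a-3p match, chr19:45473764-45473785, plus strand: cttgtttctgatgaCAGTGTTa
ATF3, hsa-miR-155-5p match, chr1:212620490-212620511, plus strand: ggtacccaggctttAGCATTAt
ATF3, hsa-miR-221-3p match, chr1:212620524-212620545, plus strand: gcattgtttttgtcATGTAGCt
JUNB, hsa-miR-101-3p match, chr19:12793177-12793198, plus strand: cccctctctgcaccGTACTGTg
FOS, hsa-miR-34a-5p match, chr14:75281450-75281471, plus strand: gcacccacaagtgcCACTGCCc
FOS, hsa-miR-221-3p match, chr14:75281613-75281634, plus strand: tacctcttccggagATGTAGCa
FOS, hsa-miR-155-5p match, chr14:75281735-75281756, plus strand: cttagtcttctcatAGCATTAa
FOS, hsa-miR-101-3p match, chr14:75281934-75281955, plus strand: atagctatatccatGTACTGTa
FOSL1, hsa-miR-34a-5p match, chr11:65892550-65892571, minus strand: aaccccttccagatCACTGCCa
FOSL1, hsa-miR-34a-5p match, chr11:65892449-65892470, minus strand: taactcaccagcccCACTGCCa
FOSL2, hsa-miR-155-5p match, chr2:28416411-28416432, plus strand: gaatagaaactgatAGCATTAa
FOSL2, hsa-miR-200b-3p match, chr2:28417138-28417159, plus strand: gtaatacaagcctaCAGTATTt
JUN, hsa-miR-200b-3p match, chr1:58781737-58781758, minus strand: cattcgatctcattCAGTATTa
JUN, hsa-miR-200a-3p match, chr1:58781448-58781469, minus strand: ttgggtatcctgccCAGTGTTg

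Among 12527 genes tested between the fractions and with a 3′ UTR, 17.6% held a match to miR-34a, 11.7% to miR-101, 11.8% to miR-155, 9.21% to miR-221, 20.9% to miR-200a and 19.0% to miR-200b. Each of these 6 microRNAs matched a larger share of the AP-1 mRNAs than of all genes, but they were not alone in this among the 18. The same held for miR-24, miR-19a (2 of the 8, against 15.4%), miR-22 (2, against 16.2%) and miR-21 (1, against 9.78%). The rest of the 18 matched a smaller share of the AP-1 mRNAs than of all genes. No AP-1 mRNA held a let-7 match, against 11.1% of genes. For miR-17 and miR-16 FOSL2 alone held a match, against 24.8% and 24.9% of genes, while miR-24 matched 3 of the 8, against 17.7%. Neither microRNA levels nor bound sites were measured in these libraries. The pentamer ATTTA, the core of AU-rich elements, stood in all 8 of the 3′ UTRs, against 72.7% of genes. FOS had 5 copies (6.20 per kb), JUNB 2 (4 per kb), ATF3 3 (2.46) and JUN 3 (2.34), where the median gene had 1.67 per kb. FOSL2 had 1.85 per kb, and FOSB (1.38), JUND (1.34) and FOSL1 (1.19) were below the median. The longer form, TTATTTA followed by 2 letters A or T, stood in FOS and FOSL2 alone, against 21.8% of genes. The 30-base windows with the most copies in FOS and FOSL2, the mRNAs with 2 copies in such a window, are shown with ATTTA in capitals.
FOS, AU-rich window, chr14:75282047-75282076, plus strand: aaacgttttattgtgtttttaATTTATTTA
FOSL2, AU-rich window, chr2:28416342-28416371, plus strand: agaagaaattgacATTTAttttattATTTA

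The library totals ran from 17457116 to 20933675 counts. The row of ribosomal RNA held 4.32% and 5.97% of the counts in heavy and light libraries labelled knockout, against 2.61% and 3.59% in heavy and light wild type. DICER1 mRNA had 925 counts in knockout-labelled heavy, 889 in knockout-labelled light, 500 in heavy wild type and 547 in light wild type polysomes, so it was higher in the libraries labelled knockout. The count covers the whole gene and does not show whether the enzyme is made. Every direction between the genotypes therefore rests on the labels. Of 8 epithelial and colonic markers, KRT8, KRT18, KRT19, EPCAM, CDH1 and CLDN4 had at least 719 counts in each library, while CEACAM5 and VIL1 had 0 or 1. The 6 measured ones had a median log2 ratio of labelled knockout over wild type of 0.04 in heavy and 0.87 in light polysomes. The part of these differences in the AP-1 results was not tested. Of 14 markers of stroma, endothelium and blood, none had 50 counts in any library, and the highest count was 16, for VWF. DCN, LUM, PTPRC and CD3E were at 0 throughout, and the summed level of the 14 ranged from 1.31 to 1.93 CPM.

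The first question was how strongly each AP-1 gene was present. Levels are given as CPM, counts scaled to equal library size, here after TMM scaling, which sets the libraries to a common scale by the bulk of the genes. Per kb of the GENCODE transcript, and averaged over the 4 libraries, the order was JUND (189 CPM per kb), JUNB (177), FOSL1 (151), FOS (88.7), ATF3 (76.5), JUN (65.8), FOSB (13.5) and FOSL2 (2.76). The neighbours in this order overlapped between libraries, except at the low end, where neither JUN and FOSB nor FOSB and FOSL2 did. JUND ranged from 114 to 286 CPM per kb and JUNB from 113 to 286. JUN ranged from 56.9 to 75.5 CPM per kb, FOSB from 4.34 to 30.2 and FOSL2 from 1.88 to 3.94. Together the 8 genes held 0.0996% of the counts in knockout-labelled heavy (exact 95% interval 0.0982 to 0.101%), 0.136% in knockout-labelled light (0.134 to 0.138%), 0.183% in heavy wild type (0.181 to 0.185%) and 0.209% in light wild type polysomes (0.207 to 0.211%).

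**Figure D1:**
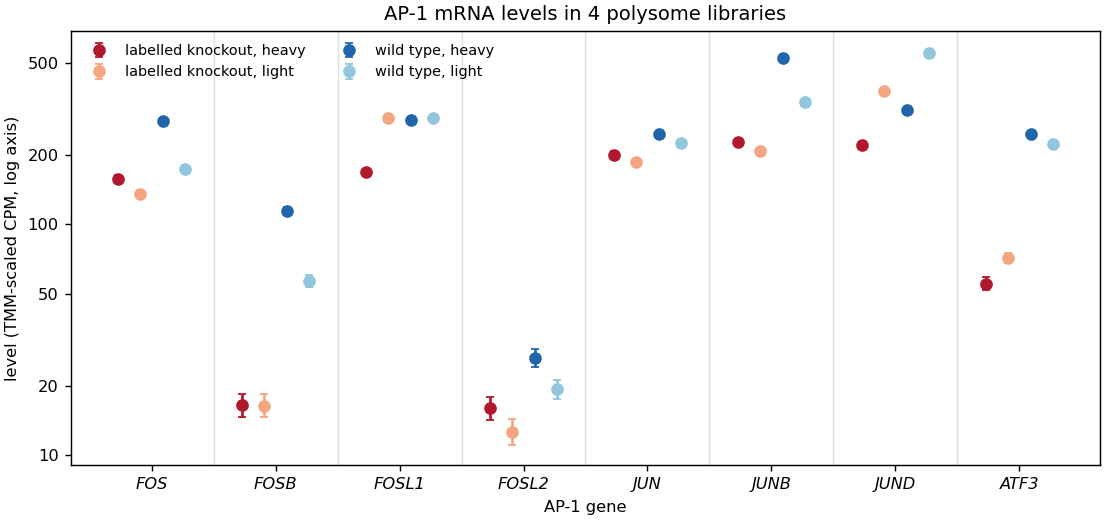
TMM-scaled CPM (log axis) of the 8 AP-1 genes in the 4 libraries, with exact Poisson 95% counting intervals, many smaller than the points. FOSB stood at 16.4 CPM in both knockout-labelled libraries and at 114 and 56.8 CPM in heavy and light wild type polysomes.

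The second question was whether the AP-1 mRNAs differed between the genotypes. In heavy polysomes all 8 were lower in the library labelled knockout, by log2 ratios of -2.79 to -0.30. In light polysomes 7 were lower and FOSL1 stood at 0.00. The median log2 ratio of the 8 was -0.79 in heavy and -0.58 in light polysomes, against -0.03 and 0.03 over 10418 genes for which the richer library of each fraction reached 100 counts. All 8 AP-1 genes met that minimum. A ratio below 0 in both fractions was seen for 7 of the 8, against 31.9% of those genes. The 8 were chosen with earlier results of these data known, so this is a description. With 1 library a side there is no replicate check, and the intervals given cover counting error only. Both fractions of a genotype come from 1 gradient and do not replicate each other. In such bulk libraries fewer cells with an mRNA and less mRNA per cell cannot be told apart, nor can a lower mRNA level and a lower share of it on polysomes, because no library of total RNA was analysed here.

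FOSB (GRCh38 chr19:45467995-45475179, plus strand, 4 exons) encodes a FOS protein that growth signals induce briefly, and it showed the largest difference. It had 297 counts in knockout-labelled heavy and 301 in knockout-labelled light polysomes, against 2156 and 1250 in heavy and light wild type polysomes. Scaled, these were 16.4 and 16.4 CPM in the libraries labelled knockout, against 114 and 56.8 CPM in the wild type libraries. On the log2 scale the ratio to wild type was -2.79 in the heavy fraction (counting interval -2.96 to -2.61) and -1.79 in the light one (-1.97 to -1.61). The labelled knockout thus held 14.5% and 29.0% of the wild type level. Of all genes, 0.163% had a lower ratio in heavy and 0.346% in light polysomes.

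ATF3 (chr1:212565334-212620777, plus strand, 4 exons), an AP-1 partner that stress and amino acid shortage induce, came next. Its levels were 55.3 CPM in knockout-labelled heavy and 71.4 CPM in knockout-labelled light polysomes, against 245 and 222 CPM in heavy and light wild type polysomes. The log2 ratio was -2.15 in heavy (-2.25 to -2.05) and -1.63 in light polysomes (-1.72 to -1.55). Both libraries labelled knockout lay far below both wild type libraries, as for FOSB, a pattern whose share over all genes was not counted.

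JUNB (chr19:12791486-12793315, plus strand, 1 exon), a JUN protein that often acts as a weaker activator than JUN, had 227 CPM in knockout-labelled heavy against 523 CPM in heavy wild type polysomes. In light polysomes it had 207 CPM in the labelled knockout against 336 CPM in the wild type. The log2 ratios were -1.20 (-1.25 to -1.15) and -0.70 (-0.76 to -0.65). FOS (chr14:75278826-75282230, plus strand, 4 exons), the founding FOS protein, had 157 CPM in knockout-labelled heavy against 281 CPM in heavy wild type polysomes, and 135 CPM in knockout-labelled light against 174 CPM in light wild type polysomes. Its log2 ratios were -0.84 (-0.90 to -0.77) and -0.37 (-0.44 to -0.29). For both genes the 2 libraries labelled knockout lay below the 2 wild type libraries. This is a description, since no share over all genes was counted.

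FOSL2 (chr2:28392448-28417317, plus strand, 4 exons), a FOS protein without the strong activation domain of FOS, was the least abundant. It had 288 counts in knockout-labelled heavy and 232 in knockout-labelled light polysomes, against 500 and 424 in heavy and light wild type polysomes. Its log2 ratios were -0.73 (-0.94 to -0.52) and -0.60 (-0.83 to -0.37), with the widest intervals of the 8. For FOSL2 and JUN the knockout-labelled libraries lay below the wild type ones, while for FOSL1 and JUND the libraries of the genotypes overlapped. The share of all genes without such overlap was not counted, so this too is a description.

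JUN differed least among the genes that were lower in both fractions, and JUND differed by similar amounts in each. JUN (chr1:58776845-58784048, minus strand, 1 exon), the main partner of FOS, had 199.9 CPM in knockout-labelled heavy against 246 CPM in heavy wild type polysomes, and 185 CPM in knockout-labelled light against 225 CPM in light wild type polysomes. The log2 ratios were -0.30 (-0.36 to -0.24) and -0.28 (-0.34 to -0.22), and 26.1% and 25.6% of genes had lower ones. JUND (chr19:18279694-18281622, minus strand, 1 exon), the JUN protein that is made more evenly and responds least to growth signals, had 220.0 CPM in knockout-labelled heavy against 312 CPM in heavy wild type polysomes, and 377 CPM in knockout-labelled light against 552 CPM in light wild type polysomes. Its log2 ratios were -0.50 (-0.56 to -0.45) and -0.55 (-0.59 to -0.51).

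FOSL1 (chr11:65892049-65900573, minus strand, 4 exons), the FOS protein that sustained ERK signalling maintains in carcinoma cells, was lower in heavy polysomes and level in light ones. It had 167 CPM in knockout-labelled heavy against 282 CPM in heavy wild type polysomes, a log2 ratio of -0.75 (-0.82 to -0.69). In light polysomes the labelled knockout had 289 CPM and the wild type 288 CPM, a log2 ratio of 0.00 (-0.05 to 0.06). With library totals in place of TMM scaling this ratio was -0.0823.

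A difference of at least 2-fold toward lower values was counted for 3 AP-1 genes in heavy polysomes (FOSB, ATF3 and JUNB), against 2.37% of the 10418 genes. In light polysomes it was counted for 2 (FOSB and ATF3), against 2.49%. The same 2 met it in both fractions, against 1.2%. None was at least 2-fold higher in both fractions, against 1.17% of genes.

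**Figure D2:**
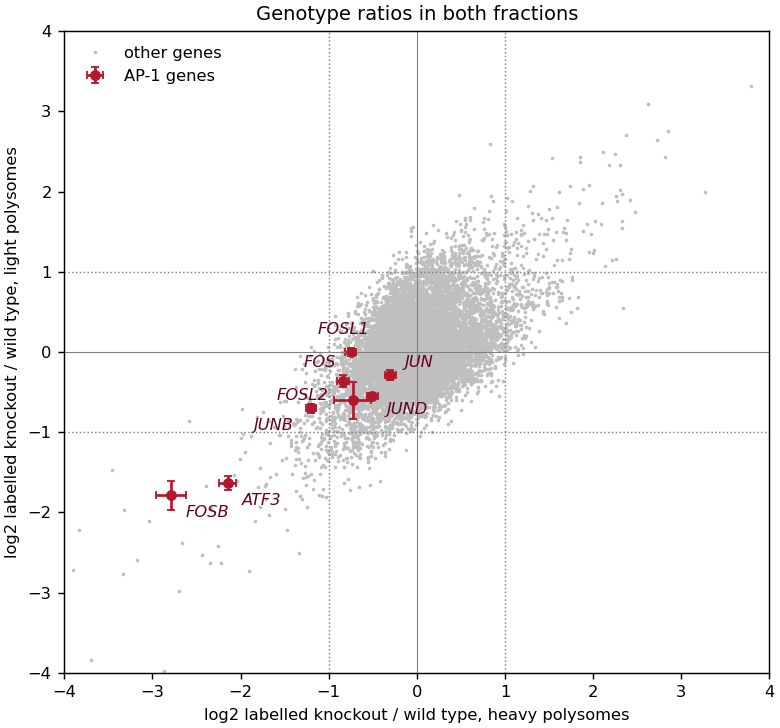
Log2 ratio of the labelled knockout over the wild type in heavy (x axis) and light polysomes (y axis) for 10418 genes (grey, 17 of them outside the axes) and the 8 AP-1 genes (red, with 95% counting intervals). Dotted lines mark 2-fold. FOSB and ATF3 lie past 2-fold on both axes, JUNB on the heavy axis, and FOSL1 on the 0 line of the light axis.

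The makeup of each subfamily differed between the libraries. Within the FOS group, FOSB held 4.60% of the counts in knockout-labelled heavy (exact interval 4.10 to 5.14%) and 3.62% in knockout-labelled light polysomes (3.23 to 4.04%). In the wild type it held 16.2% in heavy (15.6 to 16.9%) and 10.5% in light polysomes (10.0 to 11.1%). Per kb, FOSL1 led the group in every library, with 54.7% and 70.7% in knockout-labelled heavy and light polysomes and 49.7% and 62.7% in heavy and light wild type polysomes. Within the JUN group, JUNB held per kb 41.5% in knockout-labelled heavy and 30.9% in knockout-labelled light, against 54.6% in heavy wild type and 34.1% in light wild type polysomes. JUND held 53.5% of the JUN group in knockout-labelled light and 53.1% in light wild type polysomes, while in heavy polysomes it held 38.1% in the labelled knockout and 30.9% in the wild type.

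**Figure D3:**
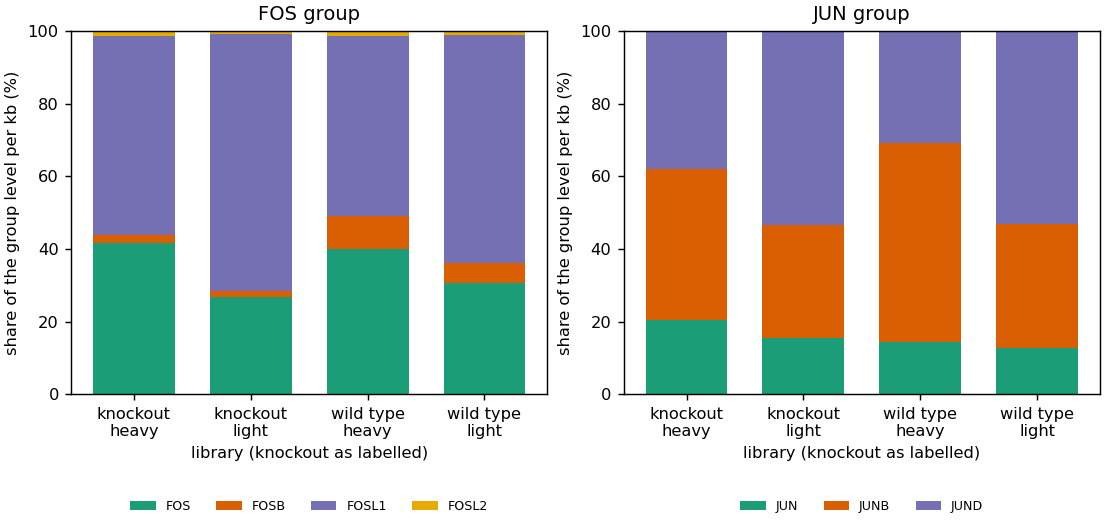
Share of each gene in the summed level per kb of the FOS group (left) and of the JUN group (right) in the 4 libraries. FOSB is the thin second band of the FOS group in the labelled knockout (2.42% heavy, 1.81% light) and is wider in the wild type (9.06% heavy, 5.57% light).

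The third question was whether the AP-1 mRNAs lay in heavy or light polysomes. For this the 2 gradients served as replicates, and edgeR's quasi-likelihood test was run over 13574 genes with the gradient as a block. None of the 8 AP-1 mRNAs was called toward heavy polysomes at a Benjamini-Hochberg adjusted p under 0.05, where 30.0% of all genes were. At an unadjusted p under 0.05 the count was 0 by edgeR and 0 by DESeq2, but 1 by edgeR with DESeq2 size factors and 1 without the filter on low counts. JUND alone was called toward light polysomes, where 29.3% of all genes were. The median fitted log2 heavy to light ratio of the 8 was 0.25, against -0.07 over all genes. With library totals in place of TMM the median of all genes was -0.30, and 38.9% of the calls were toward heavy polysomes, against 50.6% with TMM. With 1 residual degree of freedom the spread is shared across genes and reflects the disagreement of the genotypes.

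JUND had 220.0 CPM in knockout-labelled heavy and 377 CPM in knockout-labelled light polysomes, and 312 CPM in heavy wild type and 552 CPM in light wild type polysomes. Its log2 heavy to light ratio was -0.78 in the knockout-labelled gradient and -0.82 in the wild type gradient. The fitted ratio was -0.80 (SE 0.31, edgeR adjusted p = 0.0177, lower in heavy polysomes in 2 of 2 gradients). Without the gradient as a block its adjusted p was 0.0770. Its coding sequence of 1044 nucleotides has the same length as that of JUNB, whose fitted ratio was 0.39 (SE 0.30, edgeR adjusted p = 0.267).

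FOSB (fitted log2 ratio 0.53, SE 0.27, edgeR adjusted p = 0.0804) and FOS (0.45, SE 0.29, adjusted p = 0.167) were not called. In the wild type gradient alone they stood at 1.005 (counting interval 0.90 to 1.11) and 0.69 (0.63 to 0.75) toward heavy polysomes, and in the knockout-labelled gradient at 0.00 (-0.23 to 0.23) and 0.22 (0.14 to 0.30). JUNB likewise stood at 0.14 (0.07 to 0.20) in the labelled knockout and 0.64 (0.59 to 0.68) in the wild type gradient. FOSL2 was at 0.40 (SE 0.26, edgeR adjusted p = 0.172) and JUN at 0.12 (SE 0.29, adjusted p = 0.742), neither called. With library totals alone JUN stood at -0.12, on the other side of 0.

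FOSL1 had a fitted ratio of -0.41 (SE 0.30, edgeR adjusted p = 0.232) from unlike gradients, at -0.79 (-0.85 to -0.72) in the labelled knockout and -0.03 (-0.09 to 0.02) in the wild type. With library totals in place of TMM it was called toward light polysomes (-0.64, edgeR adjusted p = 0.0277). ATF3 stood at -0.37 (-0.49 to -0.25) in the labelled knockout and 0.15 (0.09 to 0.20) in the wild type gradient, with a fitted ratio of -0.11 (SE 0.28, edgeR adjusted p = 0.759).

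**Figure D4:**
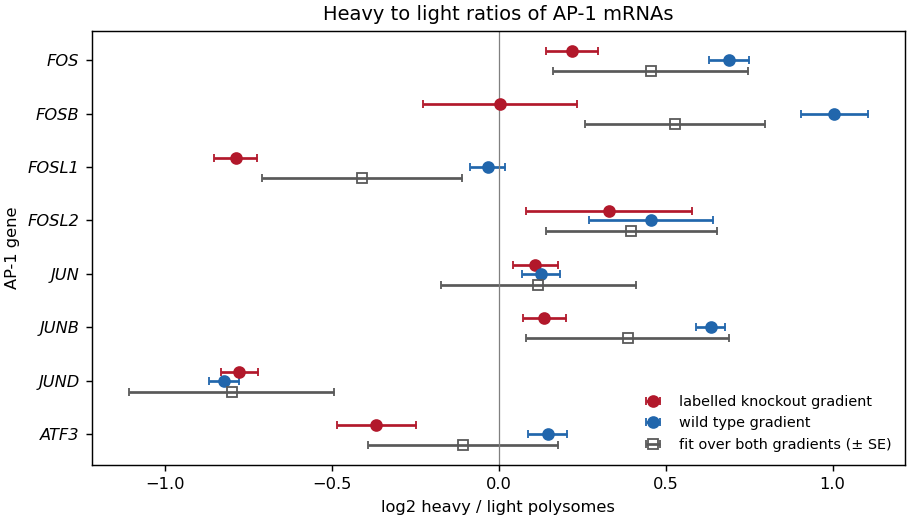
Log2 heavy to light ratio of each AP-1 gene in the knockout-labelled gradient (red) and the wild type gradient (blue), with 95% counting intervals, and the edgeR fit over both gradients (open squares, ± SE). JUND is at -0.78 and -0.82 in the 2 gradients, while FOSB is at 0.00 in the labelled knockout and 1.005 in the wild type.

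Position in the gradient follows coding length, so the ratios were set beside those of genes with similar coding sequences. For 2857 genes of over 1000 and up to 1500 coding nucleotides the median fitted log2 ratio was 0.00, with quartiles at -0.59 and 0.77. JUND, of 1044 nucleotides, lay below the lower quartile. FOS (1143 nucleotides), FOSB (1017) and JUNB (1044) lay between the median and the upper quartile. For 2835 genes of over 500 and up to 1000 nucleotides the median was -0.52 and the upper quartile 0.05. FOSL2 (981 nucleotides) and JUN (996) lay above that quartile. Both are close to the limit of 1000 nucleotides, and in the longer class they would lie between the median and the upper quartile. ATF3 (546) lay between it and the median, and FOSL1 (816) was at -0.41, also above the median.

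Features of the transcripts did not enter the choice of the genes. All 8 had fewer exons (1 or 4) than the median gene (9). Their coding sequences, of 546 to 1143 nucleotides, were all shorter than the median of 1416. JUN, JUNB and JUND each have a single exon, as do 2.10% of the 12537 coding genes tested. Coding GC content was above the median gene (52.6%) in all but ATF3 (51.1%), and reached 67.8% in JUNB and 73.3% in JUND. JUND also had the most GC-rich 5′ UTR of the 8, at 89.9%, and 99.7% of genes had a lower value. The 5′ UTRs of JUN (977 bases), FOSL2 (863) and FOSB (591) were longer than those of 99.0%, 98.5% and 95.2% of genes. The exons of JUNB overlap HOOK2, a gene on the other strand, over 14.2% of their bases, and reads there cannot be assigned without the strand setting. No exon of the other 7 genes overlaps an exon of another gene in the annotation.

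The fourth question was whether the heavy to light ratio differed between the genotypes. The shift, on the log2 scale the ratio of heavy to light polysomes in the knockout-labelled gradient less the one in the wild type gradient, ran between -1.002 and -0.12 for 6 genes and was near 0 for JUN (-0.02) and JUND (0.05). FOSB had the largest, at -1.002 (counting interval -1.25 to -0.75), and was the one AP-1 gene past 2-fold, against 3.28% of 10834 genes. It sat on that limit, and with library totals in place of TMM no AP-1 gene passed it. That scaling raised each shift, to 0.13 for JUN and 0.19 for JUND. FOSL1 followed at -0.76 (-0.84 to -0.67), ATF3 at -0.51 (-0.65 to -0.38), JUNB at -0.50 (-0.58 to -0.42) and FOS at -0.47 (-0.57 to -0.37). The interval of FOSL2 included 0 (-0.12, -0.43 to 0.19), as did those of JUN and JUND.

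The shift also moved with the position of an mRNA in the gradient over all genes. For 2804 genes with fitted heavy to light ratios over 0.5 and up to 1.5 the median shift was -0.32, with quartiles at -0.57 and -0.02. FOSB, the AP-1 gene in that range, lay below them. For 3480 genes between -0.5 and 0.5 the median shift was 0.05 and the lower quartile -0.28. FOS, JUNB, ATF3 and FOSL1 lay in that range and below its lower quartile, and FOSL2, JUN and JUND did not lie below the quartile of their range. The part of this trend in the shifts of the AP-1 genes was not tested.

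Other genes of the AP-1 pathway were counted in 6 lists, also chosen with earlier results of these data known. A pair of values gives a gene's or a list's log2 ratio of the genotypes in heavy and then in light polysomes. The calls of each list in the heavy to light test stand beside 30.0% of all genes called heavy and 29.3% called light. Among other immediate early genes, 25 of 27 had enough counts. Of these 25, 19 were below 0 in both fractions, against 31.9% of all genes. At least 2-fold lower were 5 in heavy and 5 in light polysomes, against 2.37% and 2.49% of all genes, and EGR2 alone was so in both. The median log2 ratio was -0.66 in heavy and -0.40 in light polysomes. EGR2, a zinc finger factor, had log2 ratios of -1.49 and -1.96, KLF4, a factor of epithelial differentiation, -0.76 and -1.73, the orphan nuclear receptor NR4A1 -0.80 and -1.12, and the ERK phosphatase DUSP5 -0.66 and -1.21. In the heavy to light test 5 of the 27 in the fit were called heavy and 4 light.

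Partners that can pair with AP-1 proteins were measured for 12 of 18. Of the 12, 7 were below 0 in both fractions, against 31.9% of all genes, and their median was -0.22 in heavy and -0.69 in the light fraction. DDIT3, a stress-induced C/EBP partner, was at least 2-fold lower in both (-1.11 and -1.30), and its exons overlap MARS1, on the other strand, over 27.2% of their bases. MAFF, a small MAF protein, stood at -0.93 and -1.17, CEBPB at -0.74 and -1.09, and CEBPG, also of the C/EBP family, at -0.68 and -1.13. Of the 15 in the fit, 3 were called heavy and 6 light.

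Upstream kinases and factors had medians near those of all genes. Of 22 measured, 5 were below 0 in both fractions, against 31.9% of all genes, and 0 were at least 2-fold lower in either, against 2.37% in heavy and 2.49% in light polysomes. The medians were 0.08 and 0.10. ELK4 and ELK3, partners of serum response factor at immediate early promoters, were higher at 1.20 and 0.81 and at 1.34 and 0.57. SRF, serum response factor itself, was at -0.50 and -0.91. EGFR, the receptor of EGF, was at 0.17 and 1.07. In the fit 6 of 23 were called heavy and 8 light.

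Genes of AP-1 protein turnover had medians of 0.09 and 0.23 over 8 of 9, with 2 of the 8 below 0 in both fractions, against 31.9% of all genes, and 0 at least 2-fold lower. FBXW7, a ubiquitin ligase subunit that marks JUN for decay, stood at 0.76 and 0.19, CUL4A at 0.37 and 0.38, ITCH at -0.15 and -0.53 and RFWD2 at -0.16 and -0.44. In the fit 3 of 9 were called heavy and 2 light. Proteins that bind AU-rich elements had medians of -0.41 and -0.05 over 10 genes, 6 of them below 0 in both fractions, against 31.9% of all genes. ZFP36L2, which promotes decay of such mRNAs, was at least 2-fold lower in both (-1.08 and -1.80), TIA1 stood at -0.49 and -0.67, PARN at -0.72 and -0.06 and TIAL1 at -0.18 and -0.40. In the fit 3 of 10 were called heavy and 2 light.

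Of 23 published AP-1 target genes measured, 9 were below 0 in both fractions, a share near the 31.9% of all genes. At least 2-fold in both fractions, 2 were lower, against 1.2% of all genes, and 1 was higher, against 1.17%. Their median was -0.30 in heavy and 0.47 in light polysomes. CXCL8, the neutrophil chemokine, had 38 counts in knockout-labelled heavy and 92 in knockout-labelled light polysomes, against 192 and 696 in heavy and light wild type polysomes (log2 ratios -2.22 and -2.63). VEGFA, an angiogenic factor, stood at -1.003 and -1.03. LAMB3, a laminin chain, stood at 1.06 and 1.04. In the fit 14 of 28 were called heavy and 3 light. DUSP1, SRF and ZFP36 each stand in 2 of the lists.

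**Figure D5:**
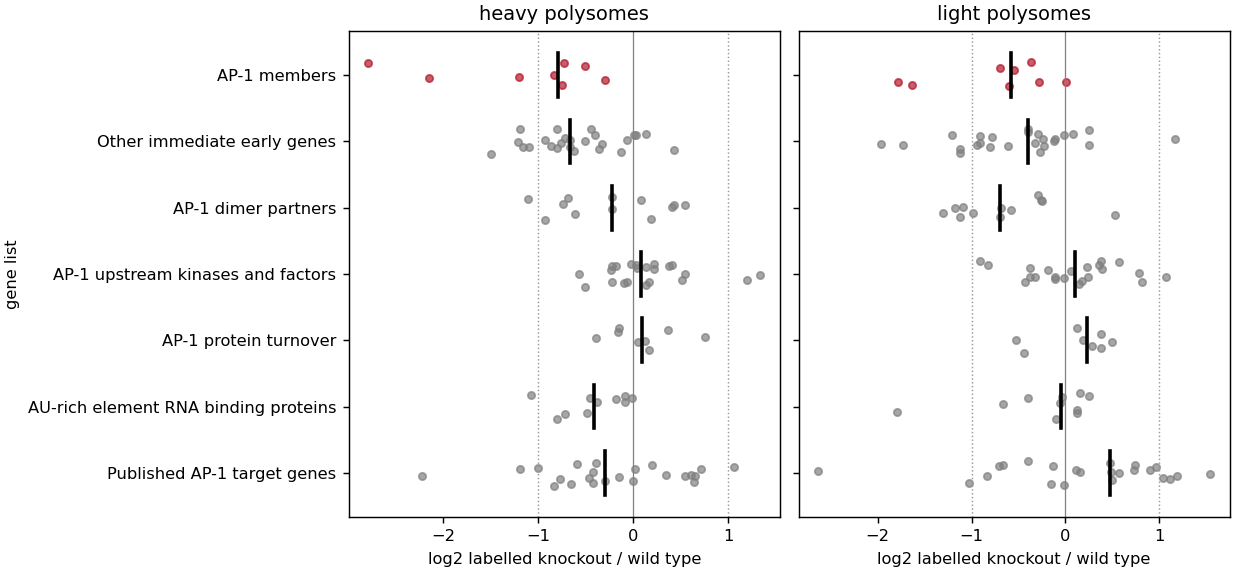
Log2 ratio of the labelled knockout over the wild type of each measured gene in 7 lists, in heavy (left) and light polysomes (right), with the list median as a black bar and 2-fold as dotted lines. The AP-1 genes (red) have medians of -0.79 and -0.58, the other immediate early genes -0.66 and -0.40, and the upstream kinases and factors 0.08 and 0.10.

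The genes closest in pattern to the AP-1 family over the 4 libraries were sought by Euclidean distance to the median profile of the 8, among 9807 genes that reached 100 counts throughout. They were STOM (distance 0.12 on the log2 scale), IMMP2L (0.13), RUNDC3B (0.16), HAUS4 (0.17) and NFKBIL1 (0.18). STOM had log2 ratios of -1.21 in heavy and -0.70 in light polysomes. With 4 libraries such likeness is a description.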

How the data were processed

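Polysome-associated RNA of HCT116 cells was sequenced in 4 libraries, 1 per group. The authors deposited whole-number read counts per gene symbol, made with CASAVA, STAR and HTSeq on hg19 per the submitters' processing notes. No version, annotation or strand setting was given in the sources used here. All columns of the table were mapped to a sample by name, and no count was changed. Library totals were 17457116 to 20933675 counts. Intervals and floors (3 counts) are 95% limits and cover counting error only, since PCR copies of 1 molecule were not told from other reads.

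Heavy and light polysomes were compared with edgeR 4.0.16 in R 4.3.3 (filterByExpr, TMM, quasi-likelihood test, gradient as a block, Benjamini-Hochberg over 13574 genes, threshold 0.05). The p-values measure the spread between 2 gradients, which may be technical. Genotypes were compared as log2 ratios of TMM-scaled CPM with a prior count of 2, without a test. In simulated data for the fraction contrast (13401 genes), 99 genes were changed 2-fold and 100 were changed 4-fold. The fit recovered 82.8% and 98.0% of them, and 3.23% of its calls were false. The simulation had a fixed spread and no difference between the genotypes, so these shares do not give the recovery in the real libraries. Alternatives were DESeq2 1.42.0, other scalings, filters, prior counts, no block, and each gradient alone.

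Symbols were matched to GENCODE release 44 on GRCh38, 23035 directly and 1392 through RefSeq synonyms, for transcript lengths, positions and 3′ UTR sequences. The counts stayed those made on hg19. RefSeq promoter windows were given for 7 of the 8 genes, FOSL1 being the other, and the 2 windows of ATF3 start at other sites than its GENCODE transcript. The members and lists were chosen with earlier results of these data known. All 8 members are named. From each list, up to 4 genes are named by the largest mean genotype ratio in size, where the richer library of each fraction reached 100 counts. One gene that this rule names is not reported here. Figures were drawn with matplotlib 3.10.9, and levels, motifs and intervals came from scipy 1.17.1, pandas 2.3.3 and numpy 2.4.6 under Python 3.11.15.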

Additional observations from a re-analysis of the deposited data

Results flagged for a closer look

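The heavy to light ratio of ATF3 took opposite directions in the 2 gradients, at -0.37 in the labelled knockout and 0.15 in the wild type on the log2 scale, a shift of -0.51 (counting interval -0.65 to -0.38). With 1 gradient per genotype this difference was not tested, and 18.9% of genes had a lower shift.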

How the results depend on the processing

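In the genotype comparison, the numbers of AP-1 genes at least 2-fold lower (3 in heavy, 2 in light, 2 in both) were the same under each of the 6 alternatives run, and every AP-1 ratio kept its sign except that of FOSL1 in light polysomes (-0.0823 with library totals). A minimum of 20 counts raised the numbers of all genes at least 2-fold lower to 423 in heavy, 455 in light and 215 in both fractions, because more genes enter. Between the fractions, no gradient block (no replicate block) left 5040 genes called, against 8051, and 0 AP-1 genes called toward light. Library totals alone gave 2 AP-1 genes toward light (JUND and FOSL1), turned JUN to -0.12, turned the shifts of FOSL2 to 0.0192 and JUN to 0.13, and left 0 AP-1 genes past 2-fold in the shift. Without the block ATF3 stood at 0.0369. Each gradient alone gave 0.00 to 1.005 for FOSB, -0.79 to -0.03 for FOSL1 and -0.37 to 0.15 for ATF3. The causes were not tested. JUND kept its call under DESeq2, DESeq2 size factors, library totals and no filter. The labels give no replicate numbers, and the block is the genotype's gradient. Depth limits FOSL2 and FOSB most, with 232 and 297 counts at their lowest.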
